A study of Caenorhabditis elegans with 6 samples.

Results

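The amoeba-type lysozyme genes lys-1 to lys-10 of the nematode Caenorhabditis elegans were examined in worms raised on chlorpyrifos (CPF), an insecticide of the organophosphorus class. Genes were taken by symbol with every probe that carried it, which gave 10 of 18865 genes and 12 of 22490 probes. lys-4 and lys-5 had 2 probes each and the other genes had 1. CPF treated worms and control worms were both of the wild type strain N2 and hatched from synchronized eggs. They were kept for 72 hours at 16 °C on agar dishes with Escherichia coli OP50 as food and were collected as L3 and L4 larvae. CPF was added to the agar in acetone, and the control agar held acetone alone. The labels give the concentration of CPF as 0.5 mg/ml and the text of the study as 0.5 mg/L, and which unit applies was not settled by the files. RNA came from whole worms, so that more cells of a kind and more RNA per cell cannot be told apart.

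Each of 6 arrays, which had long oligonucleotide probes and 2 colours, carried 1 CPF sample against 1 control sample. CPF was labelled with Cy5 on 3 arrays (CPF Cy5 replicates 1 to 3) and with Cy3 on 3 arrays (CPF Cy3 replicates 1 to 3), the control sample taking the other dye. All ratios are log2 ratios of CPF over control after loess normalization within each array, and all levels are normalized log2 intensities of the same probe. Levels of different probes are not set against each other. A fitted log2 fold change is the mean of both dye orientations, given with its SE over 6 arrays. This SE is that of limma, which borrows part of the spread from other probes. A gene was taken as changed where its adjusted p, from limma with Benjamini and Hochberg adjustment over 18865 genes, was under 0.05. The study calls its replicates biological. Whether control extracts were shared between arrays is not stated in the sources used here, and the p-values therefore reflect only how much these arrays vary.

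Lysozymes cut the peptidoglycan of bacterial cell walls. In C. elegans, which feeds on bacteria, many of them are made in the intestine, where they serve digestion and defence, and several are induced when worms are fed on pathogens. The p38 MAPK pathway, the DBL-1 pathway of the TGF-beta family and the insulin pathway that ends in the transcription factor DAF-16 are known to control genes of this kind. The lys genes differ from the invertebrate-type lysozymes ilys-1 to ilys-6, which form a separate family.

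In each sample 34.98% to 61.6% of the probes exceeded background, and no spot of a lysozyme was saturated. The dye effect passed the test for 0.0424% of all genes and for 0 of the 10 lysozymes. Arrays were not alike. Over 7072 genes with a bright probe, the ratios of the 3 CPF Cy5 arrays and of CPF Cy3 replicate 1 correlated with r between 0.432 and 0.715. CPF Cy3 replicates 2 and 3 correlated with each other with r = 0.410 and with the other 4 arrays with r between -0.169 and 0.204. Both of these arrays were scanned on the second of 2 scan days, together with CPF Cy5 replicate 3, which was among the arrays that were alike. Results that rest on CPF Cy3 replicates 2 and 3 are therefore given with and without them.

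Of the 10 lysozyme genes, 1 was lower in CPF treated worms (lys-10) and 0 were higher. Over all genes 0.869% were lower and 0.323% were higher, together 1.19%. 5 of the 10 genes had an unadjusted p under 0.05 (lys-2, lys-4, lys-5, lys-7 and lys-10), against 1950 of all 18865 genes. 7 genes were above background in both conditions on all 6 arrays, lys-3 was above it on some, and lys-6 and lys-9 were above it on none. Among these 7 genes the ratios of lys-4, lys-5 and lys-10 were below 0 on all 6 arrays, and no gene was above 0 on all 6. Of all 5842 genes that were above background in this way, 3.94% were below 0 on all 6 arrays and 2.89% above. The median log2 fold change was 0.03 over the 10 genes, against 0.01 over all genes. It was 0.19 over those 7, against -0.001 over the 5842 genes above background in the same way.

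**Figure D1:**
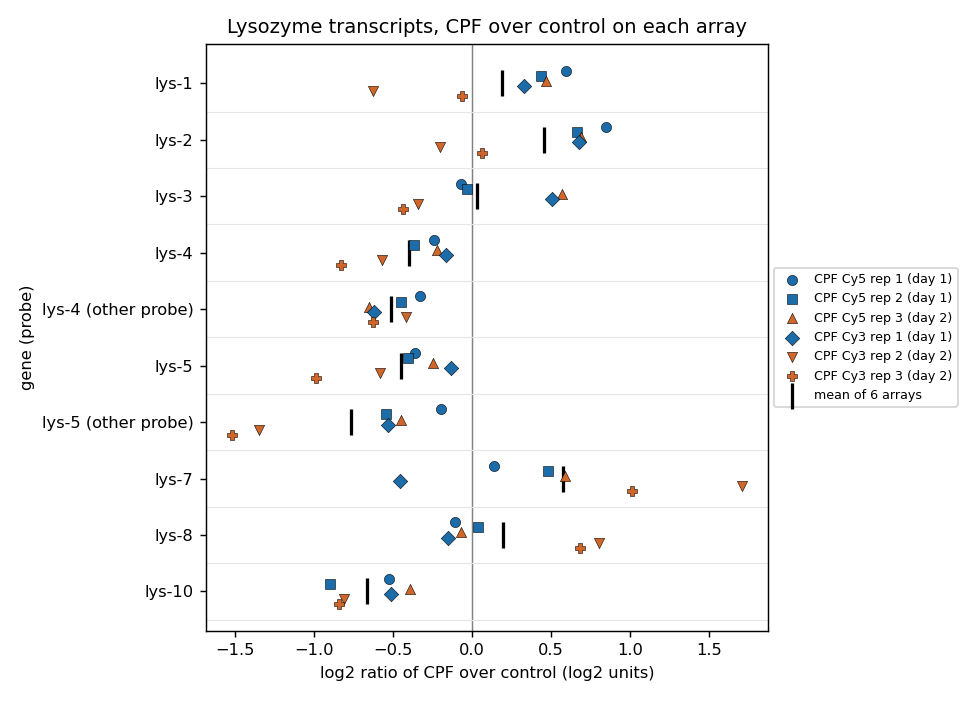
Log2 ratio of CPF over control (x axis, log2 units) on each of the 6 arrays for the 10 lysozyme probes that were above background on at least some arrays (y axis), with the colour giving the scan day and a black bar the mean. The ratios of both lys-4 probes, both lys-5 probes and lys-10 lie below 0 on every array, while those of lys-1, lys-2, lys-7 and lys-8 on CPF Cy3 replicates 2 and 3 lie apart from most of the other arrays.

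lys-10 (F17E9.11) gave the lowest fitted value of the family on the brightest probe of each gene. Its ratio was -0.53, -0.90 and -0.40 on CPF Cy5 replicates 1 to 3 and -0.51, -0.81 and -0.84 on CPF Cy3 replicates 1 to 3. The level of lys-10 ran from 7.44 to 8.96 with a median of 7.85 in CPF treated worms, and from 7.97 to 9.77 with a median of 8.53 in control worms. The levels of the 2 conditions overlapped between arrays, but on every array the CPF sample was the lower one. lys-10 fell by 0.67 ± 0.09 on the log2 scale (SE, n = 6), a 1.59-fold decrease, with a 95% interval from -0.88 to -0.45 and an adjusted p of 0.0264. Its p-value ranked 85 among 18865 genes. The call was lost without background correction (-0.51, adjusted p = 0.102) and with plain subtraction (adjusted p = 0.127). It was lost also with the authors' series values (adjusted p = 0.103), which are nearly the same ratios as those without background correction. The call held in 10 of 21 alternatives, several of which use the same ratios and are not independent. The fall was of about the same size on either scan day, -0.61 on day 1 (adjusted p = 0.0519) and -0.61 on day 2 (adjusted p = 0.152). It was -0.56 without CPF Cy3 replicates 2 and 3 (adjusted p = 0.0668). The adjusted p of lys-10 lay between 0.0589 and 0.121 when 1 array was left out, with the exception of CPF Cy3 replicate 1, without which lys-10 fell by 0.72 (adjusted p = 0.0205).

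The neighbouring genes lys-4 (F58B3.1) and lys-5 (F58B3.2), which with lys-6 (F58B3.3) follow each other on chromosome IV with 0 protein-coding genes between them, were both lower in the CPF sample of every array. The ratio of lys-4 was -0.24, -0.37 and -0.22 on CPF Cy5 replicates 1 to 3 and -0.16, -0.57 and -0.83 on CPF Cy3 replicates 1 to 3. Its level ran from 14.09 to 14.26 with a median of 14.15 in CPF treated worms, and from 14.38 to 15 with a median of 14.47 in control worms. Here the levels of the 2 conditions did not overlap, and the 2 arrays with the largest differences were those with the highest control level. The other probe of lys-4 did not overlap either, with 13.20 to 13.73 in CPF treated worms against 13.82 to 14.18 in control worms. lys-4 had a fitted log2 fold change of -0.40 ± 0.10 (adjusted p = 0.135) on its brighter probe and -0.52 ± 0.08 on the other probe. The second value had an adjusted p of 0.0344 over all probes, and passed the test in 7 of 20 alternatives.

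The ratio of lys-5 was -0.36, -0.41 and -0.25 on CPF Cy5 replicates 1 to 3 and -0.14, -0.59 and -0.99 on CPF Cy3 replicates 1 to 3. Its level ran from 13.22 to 14.34 with a median of 14.16 in CPF treated worms, and from 14.21 to 14.92 with a median of 14.41 in control worms. The conditions overlapped narrowly, and CPF Cy3 replicate 3 had the lowest level in both. The other probe of lys-5 gave -0.19, -0.55 and -0.45 on CPF Cy5 replicates 1 to 3 and -0.53, -1.35 and -1.52 on CPF Cy3 replicates 1 to 3. On both probes the largest differences were thus those of CPF Cy3 replicates 2 and 3. For lys-5 the fitted log2 fold change was -0.45 ± 0.11 (adjusted p = 0.137) on the brighter probe and -0.77 ± 0.13 on the other, whose adjusted p over all probes was 0.0505. With scan day as a block the other probe of lys-5 passed the test (adjusted p = 0.0396), as it did in 7 of 20 alternatives. Without CPF Cy3 replicates 2 and 3 the brighter probes gave -0.22 for lys-4 (adjusted p = 0.269) and -0.24 for lys-5 (adjusted p = 0.238). The other probes gave -0.55 for lys-4 (adjusted p = 0.0449) and -0.47 for lys-5 (adjusted p = 0.0717). Without CPF Cy3 replicate 1 both brighter probes passed the test, with -0.49 for lys-4 (adjusted p = 0.0355) and -0.56 for lys-5 (adjusted p = 0.0308). The fall of lys-4 passed the test also where the ratios of both of its probes were averaged (-0.46, adjusted p = 0.0386). Probe sequences were not analysed here, so that cross-hybridization between neighbours was not tested.

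**Figure D2:**
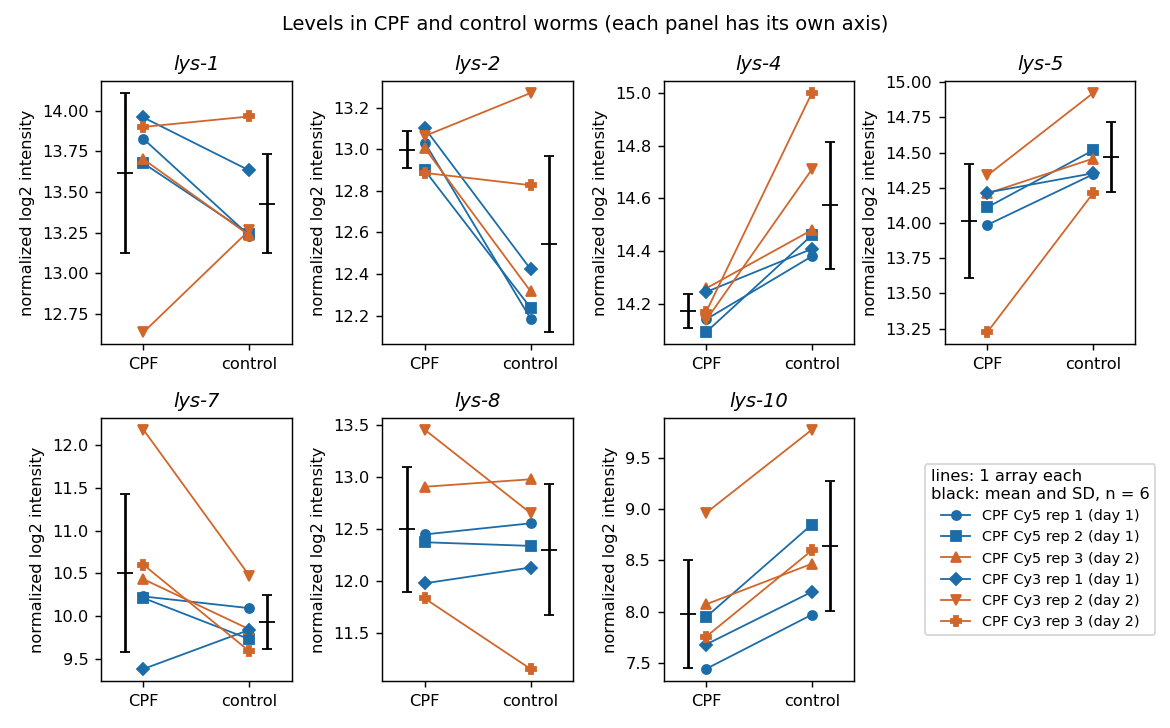
Normalized log2 intensity (y axis, each panel with its own range) of the 7 lysozymes that were above background on all arrays, CPF worms on the left and control worms on the right of each panel, with 1 line per array and the mean and SD (n = 6) in black. For lys-4, lys-5 and lys-10 the CPF end is the lower one on all 6 lines, whereas the lines of CPF Cy3 replicate 2 for lys-1 and lys-2 and that of CPF Cy3 replicate 1 for lys-7 run against most of the others.

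lys-1 (Y22F5A.4) and lys-2 (Y22F5A.5) lie next to each other on chromosome V, followed by lys-3 (Y22F5A.6). lys-1 is known to be induced in worms infected with Serratia marcescens. In the CPF sample lys-1 was higher on 4 arrays and lys-2 on 5, and both genes had their lowest ratios on CPF Cy3 replicates 2 and 3. The ratio of lys-2 was 0.85, 0.66 and 0.69 on CPF Cy5 replicates 1 to 3, 0.68 on CPF Cy3 replicate 1, and -0.21 and 0.06 on CPF Cy3 replicates 2 and 3. Its level hardly varied in CPF treated worms, 13.00 ± 0.09 (SD, n = 6) with a range from 12.89 to 13.10, against 12.54 ± 0.42 (SD, n = 6) in control worms. The control samples of CPF Cy3 replicates 2 and 3, at 13.27 and 12.83, were the 2 highest of the control samples, which otherwise lay between 12.19 and 12.42. The 2 conditions overlapped through the control sample of CPF Cy3 replicate 2, while the other 5 control samples lay below every CPF sample. Over the 6 arrays lys-2 had a fitted log2 fold change of 0.45 ± 0.12, with a 95% interval from 0.18 to 0.73, and missed the test with an adjusted p of 0.155, though the rank product used in the study, a test on the ranks of the ratios, called it higher, with a percentage of false positives (PFP) of 0.0467. Without CPF Cy3 replicates 2 and 3, which were left out after the values had been seen, lys-2 rose by 0.70 (adjusted p = 0.0203). It was then the only one of the 10 genes past the test on the brightest probes.

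The ratio of lys-1 was 0.60, 0.44 and 0.47 on CPF Cy5 replicates 1 to 3, 0.33 on CPF Cy3 replicate 1, and -0.63 and -0.06 on CPF Cy3 replicates 2 and 3. On CPF Cy3 replicate 2 the CPF sample had a level of 12.64, below those of the other 5 CPF samples at 13.68 to 13.96. The control samples of lys-1 lay between 13.23 and 13.97, and the 2 conditions overlapped. For lys-1 the fitted log2 fold change was 0.19 ± 0.12 (adjusted p = 0.692), with a 95% interval from -0.09 to 0.47, and 0.41 without CPF Cy3 replicates 2 and 3 (adjusted p = 0.0729).

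lys-7 (C02A12.4) and lys-8 (C17G10.5) went the other way on these 2 arrays. lys-7 is known as a target of DAF-16 that adds to the resistance of worms to bacterial pathogens, and lys-8 as a gene that depends on DBL-1. The ratio of lys-7 was 0.14, 0.48 and 0.59 on CPF Cy5 replicates 1 to 3 and -0.46, 1.71 and 1.01 on CPF Cy3 replicates 1 to 3, the widest range of the 10 genes. Its level ran from 9.38 to 12.18 with a median of 10.33 in CPF treated worms, and from 9.59 to 10.47 with a median of 9.84 in control worms. Most of that spread was on the side of the CPF samples, with an SD of 0.92 against 0.31 in the control samples (n = 6 each), and the conditions overlapped. The fitted log2 fold change of lys-7 was 0.58 ± 0.24 (95% interval from 0.01 to 1.14) with an adjusted p of 0.471. It was -0.03 without CPF Cy3 replicates 2 and 3 and 0.88 without CPF Cy3 replicate 1, where it passed the test (adjusted p = 0.0220). In the first of these fits CPF Cy3 replicate 1 alone stood for its dye orientation. It had as much weight there as the 3 CPF Cy5 arrays together, whose ratios were all above 0. With all 6 arrays kept, the rank product called lys-7 higher (PFP 0.0285). A call for lys-7 thus depended on the arrays kept and on the test.

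The ratio of lys-8 was -0.11, 0.04 and -0.07 on CPF Cy5 replicates 1 to 3 and -0.15, 0.80 and 0.68 on CPF Cy3 replicates 1 to 3. The first 4 of these lay close to 0 and the last 2 were clearly above it. The fitted log2 fold change of lys-8 was 0.20 ± 0.13 (adjusted p = 0.695, 95% interval from -0.10 to 0.49), and -0.10 without CPF Cy3 replicates 2 and 3 (adjusted p = 0.647). Its levels overlapped widely, 12.50 ± 0.60 in CPF treated worms and 12.30 ± 0.63 in control worms (SD, n = 6 each).

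The 5 genes whose ratios over the 6 arrays were most like those of lys-7, among 5841 other genes that were above background throughout, were F21F3.6 (r = 0.996), icl-1 (r = 0.992), Y57E12AL.1 (r = 0.991), myo-2 (r = 0.988) and rnp-1 (r = 0.987). These are descriptions over 6 arrays that were not alike, and all genes of an array share its samples. lys-7 itself ranged most widely between CPF Cy3 replicate 1 and CPF Cy3 replicate 2. icl-1 encodes the enzyme of the glyoxylate cycle and myo-2 a myosin of the pharynx muscle. None of the 5 genes passed the test of CPF against control, with adjusted p between 0.834 and 0.959. The ratio of myo-2 was -0.64, -0.24 and 0.36 on CPF Cy5 replicates 1 to 3 and -1.76, 2.25 and 1.44 on CPF Cy3 replicates 1 to 3. Among 5 pharynx markers (myo-1, myo-2, tnt-4, ceh-22 and phat-1) 0 were changed in limma and 0 had an unadjusted p under 0.05. Over all 18865 genes 1.19% were changed and 1950 had such a p. The median ratio of the 5 markers was -0.64, -0.22 and 0.36 on CPF Cy5 replicates 1 to 3 and -0.96, 0.14 and 1.17 on CPF Cy3 replicates 1 to 3. On CPF Cy3 replicate 2, where lys-7 was highest, 2 of the 5 markers were above background in the CPF sample. These were myo-2 and tnt-4, with ratios of 2.25 and 1.48. The other markers, below background in that sample, had ratios of 0.05 to 0.14, and the median of 0.14 was among them. The summed intensity of the 5 markers on that array was 6752 in the CPF sample and 2309 in the control sample. Over the 6 arrays this sum was 2201 to 6835 in CPF treated worms and 2309 to 9693 in control worms. All 5 were above background on some arrays, and their part in the ratios of lys-7 was not tested.

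lys-3, lys-6 and lys-9 (C54C8.6) gave little signal. lys-6 and lys-9 were not well above background on any array in either condition, and no fold is given for them. lys-3 was above background in 2 CPF samples and 3 control samples. Its ratio was -0.07, -0.03 and 0.57 on CPF Cy5 replicates 1 to 3 and 0.51, -0.35 and -0.44 on CPF Cy3 replicates 1 to 3. The fitted log2 fold change of lys-3 was 0.03 ± 0.15 (adjusted p = 0.976), with 4 arrays below 0 and 2 above.

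The arrays had been scanned on 2 days, CPF Cy5 replicates 1 and 2 and CPF Cy3 replicate 1 on day 1 and the other 3 arrays on day 2. The difference of the log2 ratio between the days, day 1 minus day 2, was largest for lys-7, at -1.05 ± 0.37 (SE) with an adjusted p of 0.568. It was 0.41 ± 0.21 for lys-2, -0.43 ± 0.23 for lys-8 and 0.00 ± 0.21 for lys-10. It passed the test for 0 of the 10 genes and for 0% of all genes in limma, and for lys-7 alone of the 10 the unadjusted p was under 0.05. Within the days, lys-2 rose by 0.72 on day 1 (adjusted p = 0.0262), against 0.31 on day 2 (adjusted p = 0.709). lys-7 gave -0.07 on day 1 (adjusted p = 0.783), and rose by 0.97 on day 2 (adjusted p = 0.0385). Each of these fits rests on 3 arrays, of which 1 alone stood for its dye orientation and had as much weight as the other 2 together. On day 1 this was CPF Cy3 replicate 1, and on day 2 CPF Cy5 replicate 3. The plain mean ratio of lys-7 was 0.05 on day 1 and 1.10 on day 2. What part the scan day had in the differences between arrays was not tested beyond these fits.

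**Figure D3:**
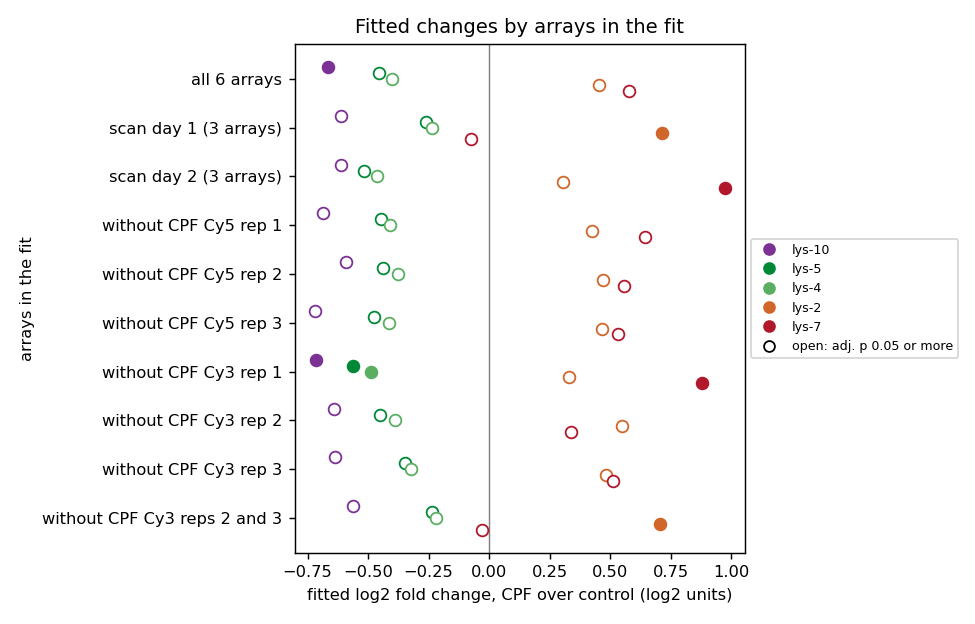
Fitted log2 fold change of CPF over control (x axis, log2 units) of 5 lysozymes with all 6 arrays, within each scan day, and with 1 or 2 arrays left out (y axis). Filled points have an adjusted p under 0.05. lys-10, lys-4 and lys-5 keep their sign in every fit, lys-2 stays above 0 between 0.31 and 0.72, and lys-7 lies between -0.07 and 0.97.

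Of the 6 invertebrate-type lysozymes 0 were changed in limma, and 1, ilys-5, had an unadjusted p under 0.05. Over all 18865 genes 1.19% were changed and 1950 had such a p. ilys-5 was the one above background in both conditions on all arrays, and its fitted difference was -0.18 ± 0.08 (adjusted p = 0.480). ilys-3, which is known to be made in the pharynx and the intestine, differed on a single array. Its ratio was -0.39, -0.15 and 0.09 on CPF Cy5 replicates 1 to 3, -0.06 on CPF Cy3 replicate 1, 2.90 on CPF Cy3 replicate 2 and -0.32 on CPF Cy3 replicate 3. The other probe of ilys-3 gave 2.99 on CPF Cy3 replicate 2 and -0.26 to 0.11 elsewhere. The fitted log2 fold change of ilys-3 was 0.35 ± 0.38 (adjusted p = 0.854), and -0.17 without CPF Cy3 replicate 2. ilys-4 had 0.20 ± 0.10 (adjusted p = 0.571). ilys-1, ilys-2 and ilys-6 were not well above background on any array, so no fold is given.

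Genes of the pathways that control lysozymes were also examined. Of 34 such genes in 4 lists 0 were changed in limma, 0 had an unadjusted p under 0.05, and their log2 fold changes lay between -0.20 and 0.20. Over all 18865 genes 1.19% were changed and 1950 had an unadjusted p under 0.05. The 0 changed genes of 34 lie near that share. Not all of the 34 genes gave a signal throughout. Above background in both conditions on all arrays were 2 of the p38 MAPK list, 5 of the DBL-1 list, 5 of the insulin list and 9 regulators. The insulin receptor gene daf-2 was above background on no array, so that the missing call says nothing of it. In the p38 MAPK list of 8 genes the lowest p-values were those of the transcription factor gene atf-7 (0.10 ± 0.12) and the phosphatase gene vhp-1 (0.11 ± 0.15). In the DBL-1 list of 9 genes they were those of the receptor gene daf-4 (-0.20 ± 0.12) and the Smad gene sma-2 (-0.16 ± 0.11). In the insulin list of 8 genes they were those of the kinase genes sgk-1 (-0.16 ± 0.09) and age-1 (0.20 ± 0.14). Among 9 regulators of gut and immune genes they were those of the receptor gene fshr-1 (-0.12 ± 0.07) and the GATA factor gene elt-4 (-0.10 ± 0.12). The adjusted p of these 8 genes lay between 0.629 and 0.886. These are transcript levels, and the activity of the pathways was not measured.

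**Figure D4:**
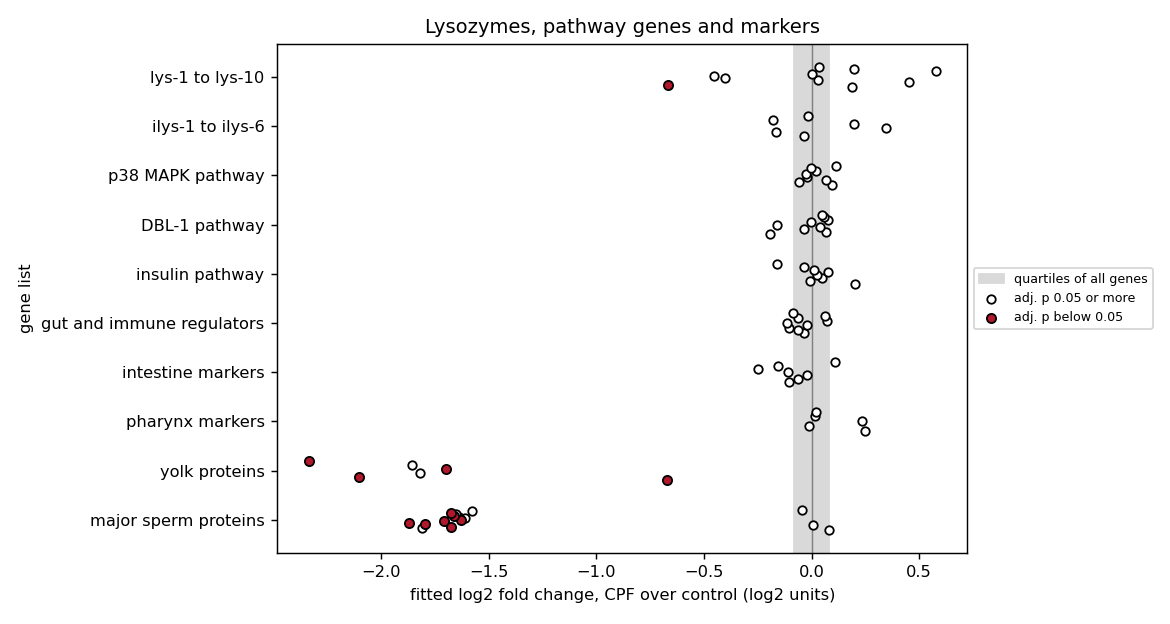
Fitted log2 fold change of CPF over control (x axis, log2 units) of each gene in the lysozyme families, 4 pathway lists and 4 marker lists (y axis), with filled points for an adjusted p under 0.05 and a grey band for the quartiles of all genes, -0.08 to 0.08. In the lysozyme and pathway lists lys-10 is the one filled point, while the yolk proteins hold 4 and the major sperm proteins 7, all to the left.

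The intestine, where many lysozymes are made, was followed with 7 markers (ges-1, act-5, ifb-2, pept-1, vha-6, elt-2 and elt-7). All 7 were above background on every array, 0 were changed in limma, 0 had an unadjusted p under 0.05, and their median log2 fold change was -0.10. Over all 18865 genes 1.19% were changed and 1950 had such a p. The fitted value was below 0 for 6 of the 7 markers. The ratio of ifb-2 was below 0 on all 6 arrays (-0.25 ± 0.11, adjusted p = 0.502). Their summed intensity was 23650 to 50680 in CPF treated worms and 27320 to 52590 in control worms. Markers of later stages differed between the conditions. 4 of 6 yolk protein genes, which the intestine of adults expresses, were lower in CPF treated worms, with a median log2 fold change of -1.84. Their summed intensity was 728.3 to 7046 in CPF treated worms and 6571 to 12140 in control worms. 7 of 15 major sperm protein genes were lower, with a median of -1.65, and 2 of the 15 were above background on no array. The share of lower genes over all genes was 0.869%. The adult cuticle collagen col-19 was lower too (-1.58 ± 0.21, adjusted p = 0.0196). It was above background in 1 CPF sample against 6 control samples, which leaves the size of its fall uncertain. The yolk list had a median ratio of -4.06, -1.36 and -2.32 on CPF Cy5 replicates 1 to 3 and -1.98, -0.74 and -0.79 on CPF Cy3 replicates 1 to 3. The stage markers were thus lower in the CPF sample of all 6 arrays, as lys-10, lys-4 and lys-5 were, and their difference was smallest on CPF Cy3 replicates 2 and 3, where that of lys-4 and lys-5 was largest on the brighter probes. What part stage had in the levels of the lysozymes was not tested.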

How the data were processed

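Per the file headers, the authors scanned the arrays with ScanArray Express. Deposited intensity values, not normalized, covered every spot and the background around it as a mean and a median. The deposited files also hold the percent of saturated pixels and a scanner code per spot, the meaning of which is not given in the sources used here. A table of log2 ratios for the series, made with limma, was deposited by the authors as well. Set against the scanner values, it equalled the loess ratio of CPF over control without background correction to within 0.0148. The medians of its columns were -0.00177, -0.000954 and -0.000756 with CPF in Cy5 (replicates 1 to 3), and -0.00126, 0.0021 and 0.00759 with CPF in Cy3. It served as an alternative. Columns normalized by the scanner software were left out.

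Without 742 control or empty spots, the 23232 spots of an array left 22490 probes. A gene table of assembly WBcel235 named 21382 of them by locus tag and 31 by gene number, and 1077 kept the file's name. A gene was represented by its brightest probe. Background was corrected with normexp (offset 50, mean foreground, median background), followed by global loess with control spots at weight 0 and Aquantile. A linear model of treatment and dye effect was fitted to all probes with limma 3.58.1 in R 4.3.3, and p-values were two-sided. Fits on 3 arrays borrow their spread across probes. The fit was tested on simulated data with known changes. A spot was above background where its foreground exceeded the background by more than 2 SD, and saturated where 25% or more of its pixels were. The number of arrays limits the precision. Alternatives covered background correction, offset, loess, probe choice, scanner code, dye term, scan day, replicate number, the study's rank product (computed with a gamma approximation and a percentage of false positives, PFP, under 0.05), and arrays left out. Named were all lys and ilys genes, the 2 genes with the lowest p of each pathway list where none passed, and the 5 genes most like lys-7. Members and lists were chosen with earlier results of these data known. Tables were made with pandas 2.3.3 and plots with matplotlib 3.10.9.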

Additional observations from a re-analysis of the deposited data

Results flagged for a closer look

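Of 42 sets of 6 values (the ratio and both levels of each lys or ilys probe with signal), 9 held 1 array that stood far from the other 5, by Dixon's critical value for the gap relative to the whole range. Chance gives about 1 in 20 such sets, and the sets share arrays and probes. 7 of the 9 concerned CPF Cy3 replicate 2. On that array ilys-3 had a ratio of 2.90, against -0.39 to 0.09 on the others, and a CPF level of 10.99, against 7.05 to 7.61. The other probe of ilys-3 showed it too, with a ratio of 2.99 against -0.26 to 0.11 and a CPF level of 10.72 against 6.64 to 6.92. ilys-5 was low on the same array in both conditions, with a CPF level of 12.72 (the others 14.30 to 14.71) and a control level of 12.97 (the others 14.55 to 14.99), so that its ratio there did not stand apart. lys-1 had a CPF level of 12.64 on that array, against 13.68 to 13.96 on the others. On CPF Cy3 replicate 3 the CPF level of lys-5 was 13.22, against 13.99 to 14.34. On CPF Cy5 replicate 1 the ratio of ilys-4 was 0.71, against -0.0018 to 0.19. The cause of these differences was not tested.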

How the results depend on the processing

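lys-10 was lower under all 21 alternatives that gave it a value, with log2 fold changes from -0.80 to -0.51, and passed the test in 10 of them (adjusted p 0.00657 to 0.152). The alternatives share data and are not independent checks. The number of changed lysozymes, 1 of 10, was 0 without background correction, with plain subtraction and with the authors' series values. It was also 0 with spots of scanner code 1 only, where 2 of the 10 genes had a value, and of code 3 only, where 6 had one, but lys-10 had none in either and neither says anything of its call. Code 3, like the fit without CPF Cy3 replicates 2 and 3, was chosen after seeing the data. The number was 2 with the mean of probes (lys-10 and lys-4), 3 with the rank product (lys-10 lower, PFP 0.00657, lys-7 higher, PFP 0.0285, and lys-2 higher, PFP 0.0467), and 0 to 4 with 1 array left out, the 4 without CPF Cy3 replicate 1 being lys-10, lys-4, lys-5 and lys-7. The rank product called 0.795% of all genes higher and 2% lower. The count of 1 within either scan day was another gene, lys-2 on day 1 and lys-7 on day 2. Of all genes 225 were changed, but 19 without background correction and with the authors' series values, 3 with plain subtraction, 145 with the median foreground, 355 with an offset of 10, 861 within day 1, 139 within day 2, 619 without CPF Cy3 replicates 2 and 3, 4 with scanner code 1 only, 145 with code 3 only, 523 with the rank product, and 7 to 313 with 1 array left out. No pathway or ilys gene and no difference between the days in a lysozyme passed under any alternative run.

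Directions turned for genes that did not pass limma's test on all 6 arrays. lys-3 was -0.318 with plain subtraction, -0.0216 with print-tip loess, and ran from -0.119 (without CPF Cy3 replicate 1) to 0.118 with 1 array left out. It was -0.0721 where CPF Cy5 replicate 3 was left out. Within day 1, lys-7 was -0.0743, lys-8 -0.0943, ilys-3 -0.164 and its other probe -0.0127. With 1 array left out, ilys-3 lay between -0.170 (without CPF Cy3 replicate 2) and 0.636 and its other probe between -0.0545 and 0.757. Without CPF Cy3 replicates 2 and 3, lys-7 was -0.0281, lys-8 -0.100 and ilys-3 -0.104. In this fit and in that within day 1, CPF Cy3 replicate 1 alone stood for its dye orientation and weighed as much as all CPF Cy5 arrays kept. The cause was not tested.

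The replicate numbers run from 1 to 3 in both dye orientations. Deviations of arrays with the same number correlated with r = 0.218, 0.125 and 0.0816, for each CPF Cy3 array the highest value. Arrays with different numbers gave r between -0.202 and 0.101. CPF Cy5 replicate 3 correlated better with CPF Cy3 replicate 2 (0.101) than with its own number. Whether the numbers mark pairs was not settled, and in the main fit the arrays were taken to share only a number. With the replicate block 1 lysozyme and 295 genes were changed. lys-10 had an adjusted p of 0.0279, the other probe of lys-4 one of 0.0534 and that of lys-5 one of 0.0233, and the block changed no other call among the lysozymes. With scan day as a random block (consensus correlation -0.0429) 1 lysozyme and 301 genes were changed. 6 arrays, of which 2 stood apart, limit what these data can resolve, and the spots of lys-6 and lys-9 were too weak for a fold.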
